A study of Rattus norvegicus with 4 samples.

Results

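Of 14218 genes named on the array, 9 amino acid transporter genes are described here: Slc7a11, Slc3a2, Slc7a5, Slc1a3, Slc1a4, Slc1a5, Slc38a1, Slc38a2 and Slc6a6. They were taken by symbol, with every probe set annotated to exactly 1 of them, which gave 14 of the 31099 probe sets. The genes were chosen by earlier values of these same arrays as well as by their function, so their log2 ratios are a description and were not tested. The cells were smooth muscle cells from the aorta of Sprague-Dawley rats, grown for 3 days in serum and then kept for 3 days without serum before treatment for 24 h. The groups were IL-1b at 2.5 ng/mL, its vehicle of 0.1% BSA with 10 mM acetic acid, PDGF-DD at 30 ng/mL, and its vehicle of 0.01% BSA. All groups therefore share the serum-free state, and the vehicles differ from each other in acid and in albumin. Whether the 4 arrays came from 1 culture batch or several is not stated, so in every comparison between or across the vehicles batch and vehicle cannot be told apart. Each group was 1 array, with no replicate and no SD, and the number of animals or cultures behind an array is not stated. Since RNA came from whole cultures, fewer cells expressing a gene and less RNA per cell cannot be told apart.

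Slc7a11 encodes xCT, the subunit of system xc- that takes up cystine in exchange for glutamate, and cystine supplies the cysteine of glutathione. Slc3a2 encodes CD98 heavy chain, which carries xCT and the LAT1 subunit encoded by Slc7a5 to the plasma membrane. LAT1 takes up large neutral amino acids such as leucine in exchange for glutamine, which ASCT2 (Slc1a5) and the sodium-coupled carriers SNAT1 (Slc38a1) and SNAT2 (Slc38a2) bring in. Several of these genes are known targets of ATF4, the factor of the amino acid response, and Slc7a11 is also a known target of NRF2, the factor of the antioxidant response.

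Intensities below are MAS5 values scaled to a common trimmed mean, and a floor at 28.1 stands for the level of unlit probe sets. A fold with 1 array at the floor is a lower bound, and levels of different probe sets were not compared. Between 58.3% and 61.5% of probe sets lay above the floor on each array. The 3'/5' ratio of the beta-actin control probe sets is a sign of RNA quality. It was 1.58 with the IL-1b vehicle, 2.05 with IL-1b, 1.26 with the PDGF-DD vehicle and 1.37 with PDGF-DD. The smooth muscle markers fitted the labelled cell type on the vehicle arrays, where 8 of 8 and 7 of 8 were above the floor. Their summed intensity was 28035 with the IL-1b vehicle, 8614 with IL-1b, 20186 with the PDGF-DD vehicle and 4701 with PDGF-DD. Of the leukocyte and macrophage markers, 1 of 6 was above the floor (Cd14), and Ptprc, Cd68, Itgam, Csf1r and Cd3e lay under it on every array. Endothelial markers summed to between 26.3 and 46.2 on the 4 arrays and epithelial markers to between 126 and 319. Of 4 endothelial markers only Tek was above the floor, on 2 arrays. Of 4 epithelial markers, 1 was above it on each array of the IL-1b pair, 2 with the PDGF-DD vehicle and 3 with PDGF-DD. Krt8 was above it on all 4 arrays. The neural markers Sox10 and S100b lay under the floor throughout. The contractile level was thus lower on both treated arrays. The actin ratio was higher on both arrays of the IL-1b pair than on either array of the PDGF-DD pair, and differed between the vehicles as well. Their part in the results below was not tested.

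Slc7a11 was higher with both factors than on either vehicle array. Its only probe set, 1378133_at, had an intensity of 31.3 with the IL-1b vehicle, 322 with IL-1b, 44.0 with the PDGF-DD vehicle and 291 with PDGF-DD. The vehicle arrays sat just over the floor and the treated arrays lay close to each other. Both treated arrays were above both vehicle arrays, which alone is common among all genes and also held for Slc3a2, Slc7a5 and Slc1a5. For Slc1a5 the lower treated array was 1.04-fold the higher vehicle array, and this gap ranked 1366 of 10885 genes. IL-1b gave 10.3-fold its vehicle (log2 ratio 3.36), which placed Slc7a11 at rank 83 of 10679 genes from the highest ratio down. PDGF-DD gave 6.63-fold (2.73), rank 9 of 10142 genes. The vehicle arrays were 1.40-fold apart, and the treated arrays 1.11-fold. With the vehicles exchanged, IL-1b gave 7.33-fold and PDGF-DD 9.29-fold.

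The lower of the treated arrays was 6.63-fold the higher of the vehicle arrays for Slc7a11. This was the largest such gap among 10885 genes above the floor on any array, and also among all 31099 probe sets, a measure chosen after the values were seen. At least 2-fold on it were 41 genes (0.377%), with Ripk2, a kinase of NOD receptor signalling, next at 5.30-fold and the cytokine Il11 then at least 4.54-fold. With the floor at the 20th percentile Slc7a11 took rank 3. With the floor at the 60th percentile it took rank 7 at 2.77-fold, since its vehicle values then fall under the floor. Of the 9 transporters Slc7a11 alone reached 2-fold by this measure; 93 genes (0.854%) were lower by as much on both treated arrays, and 0 of the 9 were among them.

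The start of Slc7a11 is shown because it carries the largest difference of the group. RefSeq's promoter window in GRCr8 lies on the minus strand at chr2:136668215-136668514 and holds 250 bases before the annotated start and 50 after it. Capitals would mark any of 5 motifs searched on both strands, and this window holds none. Sequence outside the window was not searched, so this says nothing about motifs elsewhere at the gene.
Slc7a11: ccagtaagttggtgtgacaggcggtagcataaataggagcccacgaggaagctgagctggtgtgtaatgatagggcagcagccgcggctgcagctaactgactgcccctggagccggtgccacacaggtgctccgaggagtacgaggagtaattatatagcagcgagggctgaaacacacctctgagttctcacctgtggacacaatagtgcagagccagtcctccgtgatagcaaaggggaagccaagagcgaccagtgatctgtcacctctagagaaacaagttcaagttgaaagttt

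**Figure D1:**
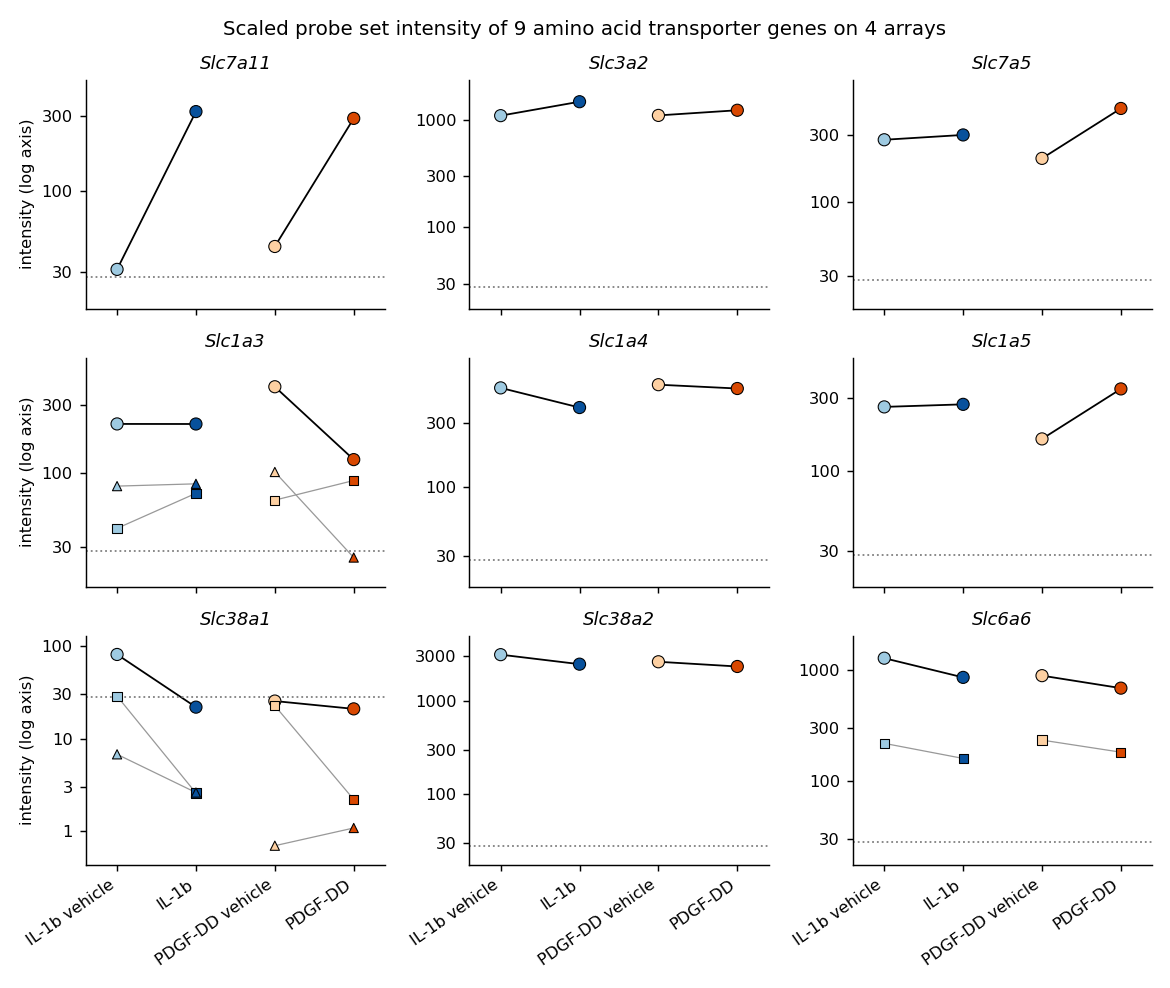
Scaled probe set intensity (log axis, each panel with its own range) of the 9 genes on the 4 arrays, 1 point per probe set and array, with a line joining each factor to its vehicle and a dotted line at the floor of 28.1. Circles are the probe set that stands for the gene; squares and triangles are its other probe sets. Slc7a11 goes from 31.3 to 322 and from 44.0 to 291, while Slc7a5 and Slc1a5 climb mainly in the PDGF-DD pair.

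Slc3a2, the heavy chain that pairs with xCT, was well above the floor on every array and differed little. Its intensity was 1088 with the IL-1b vehicle, 1466 with IL-1b, 1094 with the PDGF-DD vehicle and 1222 with PDGF-DD. The vehicle arrays were nearly equal (1.01-fold), and the treated arrays were higher by 1.35-fold with IL-1b and 1.12-fold with PDGF-DD. The order of the arrays was that of Slc7a11, IL-1b highest and the IL-1b vehicle lowest, but no pair reached 1.5-fold.

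Slc7a5, the LAT1 subunit, was 2.26-fold higher with PDGF-DD than with its vehicle. The intensities were 278 with the IL-1b vehicle, 301 with IL-1b, 205 with the PDGF-DD vehicle and 464 with PDGF-DD. PDGF-DD stood highest and its own vehicle lowest, with both arrays of the IL-1b pair between them. Against the IL-1b vehicle array the PDGF-DD array was 1.67-fold higher, and IL-1b was 1.08-fold its own vehicle. Subtracting the PDGF-DD log2 ratio from that for IL-1b gave -1.06, a difference between single arrays that was not tested.

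Slc1a5, the glutamine carrier ASCT2, took the same order of arrays as Slc7a5. Its intensity was 262 with the IL-1b vehicle, 272 with IL-1b, 162 with the PDGF-DD vehicle and 343 with PDGF-DD. PDGF-DD was 2.12-fold its vehicle but 1.31-fold the IL-1b vehicle, since the vehicle arrays were 1.62-fold apart. IL-1b was 1.04-fold its own vehicle and 1.68-fold the PDGF-DD vehicle. The size of the PDGF-DD value for Slc1a5 therefore depends on which vehicle array is set beside it.

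Slc1a4, which encodes the related neutral amino acid carrier ASCT1, was lowest with IL-1b. The values were 557 with the IL-1b vehicle, 396 with IL-1b, 589 with the PDGF-DD vehicle and 551 with PDGF-DD. IL-1b was 1.41-fold lower than its vehicle and 1.49-fold lower than the other, while PDGF-DD was within 1.07-fold of its vehicle.

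Slc1a3, the glutamate transporter GLAST (EAAT1), was lower with PDGF-DD by 3.25-fold on the probe set that stood for it. That probe set, 1368565_at, had 220.3 with the IL-1b vehicle, 220.0 with IL-1b, 402 with the PDGF-DD vehicle and 124 with PDGF-DD. The IL-1b pair was level, and the PDGF-DD vehicle array was the highest, 1.82-fold over the other vehicle. Against the IL-1b vehicle PDGF-DD was 1.78-fold lower, short of 2-fold. Probe set 1388064_a_at had the same direction, from 101 with the PDGF-DD vehicle to 25.4 with PDGF-DD, under the floor and so at least 3.61-fold lower. Probe set 1371130_at went the other way, with 64.3 on the PDGF-DD vehicle array and 88.3 with PDGF-DD, 1.37-fold higher. The probe sets of Slc1a3 thus disagree in direction for PDGF-DD, and with IL-1b 1371130_at was 1.76-fold over its vehicle (71.8 against 40.7), where the others were level.

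Slc38a1, the SNAT1 carrier, was above the floor on the IL-1b vehicle array alone. Its brightest probe set, 1372921_at, had 81.3 there, 21.9 with IL-1b, 25.4 with the PDGF-DD vehicle and 20.9 with PDGF-DD. IL-1b was thus at least 2.89-fold lower than its vehicle, but the PDGF-DD vehicle array was lower by the same bound, and for PDGF-DD against its vehicle no ratio could be given. Probe set 1370409_at reached 28.8 on the IL-1b vehicle array, beside the floor, and 1390559_at was under the floor on all 4 arrays. The signal of this gene was therefore too low on 3 of 4 arrays to compare the factors.

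Slc38a2, the SNAT2 carrier that cells raise when amino acids are short, had intensities of 3121 with the IL-1b vehicle, 2468 with IL-1b, 2619 with the PDGF-DD vehicle and 2331 with PDGF-DD. Both treated arrays were under both vehicle arrays, by no more than 1.34-fold. Slc6a6, the taurine transporter, took the same order of arrays, with 1292, 866, 898 and 692. IL-1b was 1.49-fold and PDGF-DD 1.30-fold under its own vehicle, and the vehicle arrays were 1.44-fold apart. The other probe set of Slc6a6, 1368778_at, gave 1.37-fold and 1.29-fold lower, with vehicle arrays 1.07-fold apart. The treated arrays were thus lower on both probe sets of Slc6a6, by less than 2-fold in every pair.

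Against the IL-1b vehicle, 2 of the 9 genes were at least 2-fold apart with IL-1b, where 11.6% of all genes were. Slc7a11 was higher (6.15% of all genes) and Slc38a1 lower (5.42%). Against the PDGF-DD vehicle, 4 of 8 measured genes were at least 2-fold apart with PDGF-DD, beside 8.91% of all genes: Slc7a11, Slc7a5 and Slc1a5 higher (4.24%) and Slc1a3 lower (4.67%). Between the vehicle arrays 1 of 9 was, beside 10.5% of all genes: Slc38a1, lower on the PDGF-DD vehicle array (4.67%), while 0 were higher (5.79%). Nothing is read from these shares, since the genes were chosen with those ratios in view.

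The same counts with the vehicles exchanged were 1 of 8 for IL-1b, Slc7a11 (10.4% of all genes), and 2 of 9 for PDGF-DD, Slc7a11 and Slc38a1 (20%). Between the treated arrays 0 of 8 were 2-fold apart, beside 15.8% of all genes. At 1.5-fold the counts were 2 of 9 with IL-1b (25.0% of all genes), 4 of 8 with PDGF-DD (25.0%) and 3 of 9 between the vehicles (26.3%). The median log2 ratio of the 9 genes was 0.00 with IL-1b and 0.03 with PDGF-DD, beside 0.02 and 0.01 over all genes; between the vehicles it was -0.25, beside -0.05. Slc7a11 was alone among the 9 in being at least 2-fold over both vehicle arrays with each factor.

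**Figure D2:**
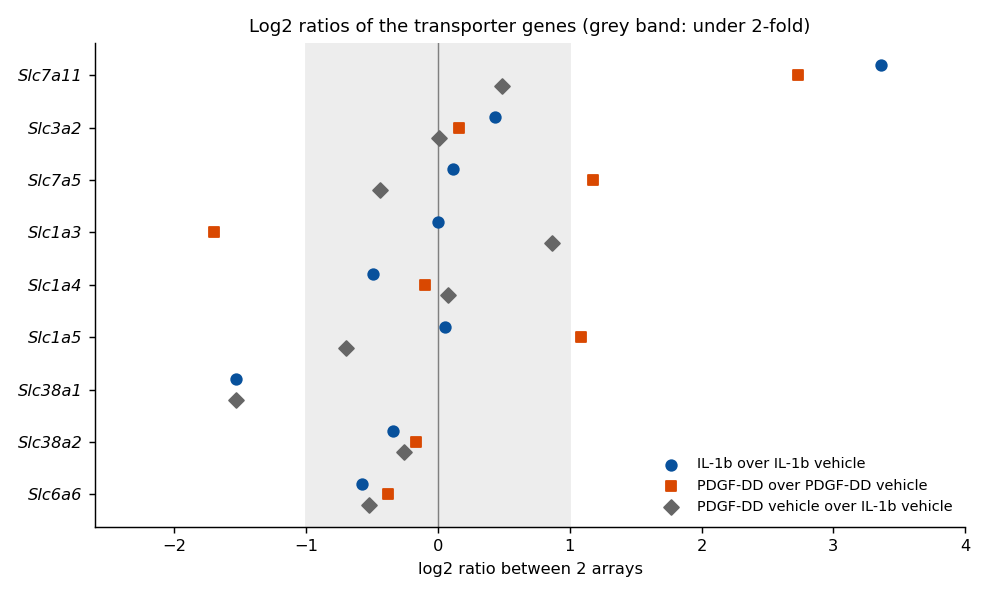
Log2 ratio between single arrays for each gene, with a circle for IL-1b over its vehicle, a square for PDGF-DD over its vehicle and a diamond for the PDGF-DD vehicle over the IL-1b vehicle; the grey band holds ratios under 2-fold. The values of Slc38a1 are bounds. Slc7a11 has 3.36 and 2.73 with the factors and 0.49 between the vehicles, while the diamonds of Slc1a3 (0.87) and Slc1a5 (-0.69) are a sizeable part of their PDGF-DD values of -1.70 and 1.08.

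**Figure D3:**
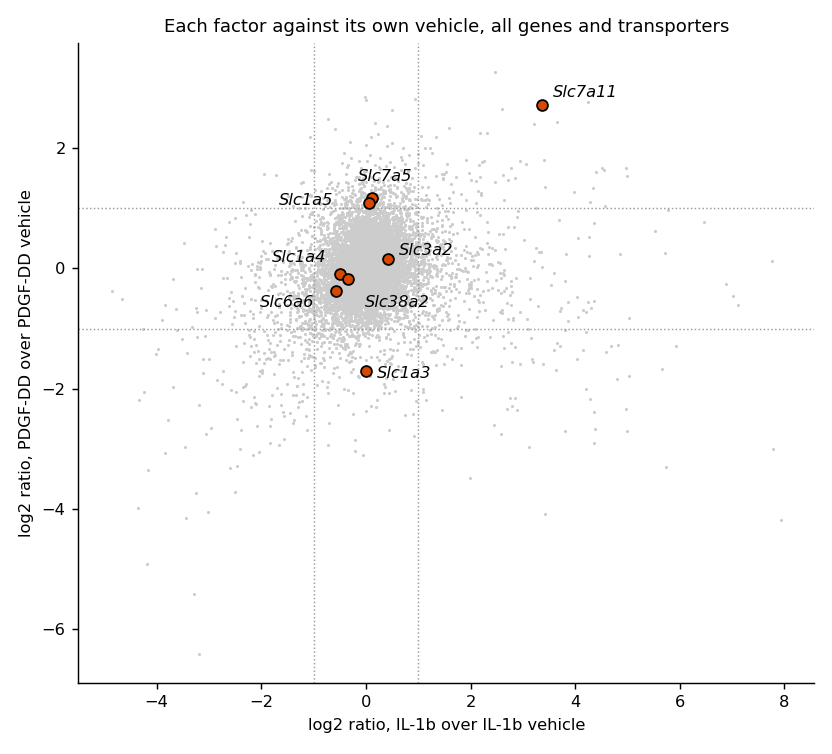
Log2 ratio of IL-1b over its vehicle (horizontal) and of PDGF-DD over its vehicle (vertical) for 9936 genes measured in both pairs (grey) and 8 of the transporters (orange); dotted lines mark 2-fold. Slc7a11 stands at the upper right, Slc7a5 and Slc1a5 above the upper line near zero for IL-1b, and Slc1a3 under the lower line. Slc38a1 is not drawn because it was at the floor on both arrays of the PDGF-DD pair.

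RefSeq promoter windows were found for 8 of the 9 genes, 11 windows in all, and not for Slc1a5. The amino acid response core TGATGNAA (or TTNCATCA on the other strand) was present in Slc38a1 and Slc1a4 and in 3.98% of all 33469 windows. The antioxidant response core TGACNNNGC (or GCNNNGTCA) was present in Slc3a2, Slc6a6 and Slc38a2 and in 12.1% of all windows. The palindrome CACGTG, an E-box bound by MYC and USF factors, was present in Slc7a5 and Slc1a4 and in 6.42% of windows. An AP-1 sequence, TGANTCA, stood in Slc38a1 alone (7.33% of windows), and a loose NF-kappaB sequence in Slc38a1 and Slc6a6 (19.3%). In Slc6a6 that match directly follows the antioxidant core, with no base shared. These matches are letters in a short window and not sites shown to be bound.

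The Slc7a5 window is shown in full because its gene was higher with PDGF-DD. It lies on the minus strand at chr19:66872363-66872662, with the E-box in capitals and starting 179 bases before the annotated start. Its GC content is 69.3%, beside 53.3% in the Slc7a11 window and a median of 51.7% over all windows.
Slc7a5: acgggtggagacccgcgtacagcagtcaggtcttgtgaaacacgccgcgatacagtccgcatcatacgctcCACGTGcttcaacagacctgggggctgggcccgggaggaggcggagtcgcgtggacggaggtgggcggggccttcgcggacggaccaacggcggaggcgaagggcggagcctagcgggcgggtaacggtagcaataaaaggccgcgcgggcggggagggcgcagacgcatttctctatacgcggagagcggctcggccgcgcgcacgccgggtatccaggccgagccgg

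Short stretches around the amino acid response core (capitals) follow for the 2 genes that hold it, because neither was measured as higher with a factor. They lie on the minus strand at chr7:129681516-129681563 for Slc38a1, 142 bases before its start, and at chr14:98761770-98761812 for Slc1a4, 235 bases before its start.
Slc38a1: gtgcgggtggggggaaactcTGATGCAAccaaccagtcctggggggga
Slc1a4: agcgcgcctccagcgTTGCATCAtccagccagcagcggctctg

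The antioxidant response core (capitals) is shown for the 3 genes that hold it, whose differences were all under 2-fold. The stretches lie at chr1:215039687-215039735 (minus strand) for Slc3a2, which has a second annotated start without the core, at chr4:125752381-125752429 (plus strand) for Slc6a6, and at chr7:129742641-129742689 (minus strand) for Slc38a2.
Slc3a2: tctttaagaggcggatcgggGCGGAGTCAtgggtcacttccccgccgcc
Slc6a6: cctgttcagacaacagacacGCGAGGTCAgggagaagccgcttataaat
Slc38a2: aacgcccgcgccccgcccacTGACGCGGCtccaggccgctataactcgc

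The gene lists below were counted against their own vehicles. Over all genes the median log2 ratio was 0.02 with IL-1b, 0.01 with PDGF-DD and -0.05 between the vehicles.

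Among 41 other amino acid transporter genes on the array, 19 were measured with IL-1b and 2 were at least 2-fold higher, with 0 lower (median log2 ratio 0.21), beside 6.15% and 5.42% of all genes. Slc1a1, a glutamate and cysteine transporter, was at least 4.61-fold higher (130 against 23.4, under the floor), and its PDGF-DD pair was under the floor. Slc43a2, a neutral amino acid transporter (LAT4), was 2.29-fold higher with IL-1b (328 against 143) and 1.71-fold lower with PDGF-DD (78.5 against 134). Its other probe set gave log2 ratios of 1.53 with IL-1b and -1.47 with PDGF-DD, the latter past 2-fold, so whether it counts as lower depends on the probe set. With PDGF-DD 14 were measured and 1 was at least 2-fold higher, 0 lower (median 0.05), beside 4.24% and 4.67% of all genes. This was Slc7a1, the cationic carrier CAT1 for arginine and lysine, with 1347 against 515 (2.62-fold), and 415 and 523 in the IL-1b pair. Its other measured probe set gave a log2 ratio of 0.96 with PDGF-DD, short of 2-fold. Slc1a1 and Slc43a2 with IL-1b and Slc7a1 with PDGF-DD were also at least 2-fold over the other vehicle array.

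Genes of the amino acid response, among them ATF4 targets and cytosolic tRNA synthetases, numbered 35 with a ratio for IL-1b: 5 were higher by 2-fold or more and 2 were lower (median log2 ratio 0.37), beside 6.15% and 5.42% of all genes. With PDGF-DD 4 of 36 were higher and 2 lower (median 0.48), beside 4.24% and 4.67% of all genes. Between the vehicle arrays 5 of 35 were higher on the PDGF-DD side (median 0.33), beside 5.79% of all genes, and with the vehicles exchanged the medians were 0.08 for IL-1b and 0.73 for PDGF-DD, so the list medians depend on the vehicle array used. With PDGF-DD 4 of these genes were at least 2-fold over both vehicle arrays. They were the tRNA synthetase Yars1, the serine pathway enzymes Psat1 and Shmt2, and Cth, which makes cysteine from cystathionine. Against the PDGF-DD vehicle Psat1 was 3.46-fold higher (1387 against 401), Cth 3.79-fold higher (137 against 36.2), and Shmt2 had 1352 against 610. Others, such as Asns (786 against 265 and 544), were above both vehicle arrays but short of 2-fold over at least 1. With IL-1b Cth was at least 2.40-fold its vehicle, and Psat1 was 1.10-fold lower. Aldh1l2, a mitochondrial folate enzyme, alone in the list was at least 2-fold higher with IL-1b than on both vehicle arrays, at 381 against 105 and 159. Vldlr, a lipoprotein receptor, was lower with both factors, with log2 ratios of -2.20 and -2.30. Trib3, a pseudokinase that ATF4 induces, had log2 ratios of 0.85 with IL-1b and 0.48 with PDGF-DD on the probe set that stood for it. Its other probe sets, at the floor on some arrays, gave 2.12 and 2.47 with PDGF-DD. The former also gave 1.14 with IL-1b, and the latter had no ratio for IL-1b. Trib3 would thus pass 2-fold with PDGF-DD on both of these probe sets, and with IL-1b on the former. The Atf4 transcript itself differed by log2 ratios of 0.13 with IL-1b and 0.25 with PDGF-DD; ATF4 is known to be controlled largely in translation, which an array does not measure.

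Of 23 glutathione and NRF2 genes, 6 passed 2-fold upward with IL-1b (median log2 ratio 0.64) and 4 with PDGF-DD (median 0.36), with 0 downward in either. The shares of all genes upward were 6.15% with IL-1b and 4.24% with PDGF-DD, and downward 5.42% and 4.67%. The 6 with IL-1b were Cd44, the metallothioneins Mt1 and Mt2A, Nqo1, Gss and Srxn1. Of these, only Cd44 and Mt1 were also at least 2-fold over the other vehicle array. Mt1 was near the floor, with 71.0 after IL-1b against 33.3 with its vehicle and 23.2 with the PDGF-DD vehicle. The last value is under the floor, so that fold is a lower bound. With PDGF-DD, Cd44, Gsr and Srxn1 were at least 2-fold over both vehicle arrays. Between the vehicles 3 of 22 were higher and 1 lower (median 0.23), beside 5.79% and 4.67% of all genes. The lower gene was Ggt5, at a log2 ratio of -1.13 with the PDGF-DD vehicle array under the floor, and its other probe set gave 0.10. With the vehicles exchanged the medians were 0.33 for IL-1b and 0.61 for PDGF-DD. Cd44, the hyaluronan receptor known to bind xCT, had 70.5 with the IL-1b vehicle, 1480.0 with IL-1b, 488 with the PDGF-DD vehicle and 1487 with PDGF-DD. Like Slc7a11 it had higher values on both treated arrays than on both vehicle arrays, but its vehicle arrays were 6.93-fold apart, where those of Slc7a11 were 1.40-fold apart. Of the glutathione enzymes, Gss (glutathione synthetase) had a log2 ratio of 1.30 with IL-1b and 0.66 with PDGF-DD, and Gsr (glutathione reductase) 0.02 and 1.13. Between the vehicles Gss had 0.97 and Gsr 0.74, and IL-1b against the PDGF-DD vehicle gave Gss 0.33. Gclc and Gclm, the subunits of the rate-limiting enzyme, had -0.54 and -0.29 with IL-1b and 0.74 and 0.60 with PDGF-DD, all under 2-fold. Among NRF2 targets, Nqo1 had 2.09 with IL-1b, 0.23 with PDGF-DD and 1.66 between the vehicles, and Srxn1 had 1.08 with IL-1b and 1.36 with PDGF-DD. Nfe2l2, which encodes NRF2, had 0.85 with IL-1b and 0.07 with PDGF-DD; Myc had -0.32 and 0.88, and Nfkb1 0.90 and -0.12.

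Of 11 measured enzymes of glutamine and glutamate metabolism, IL-1b had 2 upward and 1 downward past 2-fold, and PDGF-DD had 1 each way, beside 11.6% and 8.91% of all genes in either direction. Gls2, a glutaminase, was lower with both factors than on both vehicle arrays, with 112 after IL-1b and 101 after PDGF-DD against 402 and 624 with their vehicles. Glul, glutamine synthetase, had 939 with IL-1b against 399.5 (log2 ratio 1.23) and 473 with PDGF-DD against 514. Another probe set of Glul gave 0.998 with IL-1b, just short of 2-fold. Among 7 measured taurine and osmolyte genes, related in function to Slc6a6, Cdo1 alone passed 2-fold with a factor against its own vehicle or between the vehicles. Of all genes, 11.6% did so with IL-1b, 8.91% with PDGF-DD and 10.5% between the vehicles. Cdo1, which oxidises cysteine on the way to taurine, had 62.3 with the IL-1b vehicle, 447 with IL-1b, 316 with the PDGF-DD vehicle and 71.1 with PDGF-DD. Its vehicle arrays were 5.06-fold apart, and Csad, the next enzyme of the path, had log2 ratios of -0.10 with IL-1b and -0.79 with PDGF-DD, and -1.74 for PDGF-DD against the IL-1b vehicle. The osmolyte regulator Nfat5 had log2 ratios of -0.07 with IL-1b and -0.30 with PDGF-DD.

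**Figure D4:**
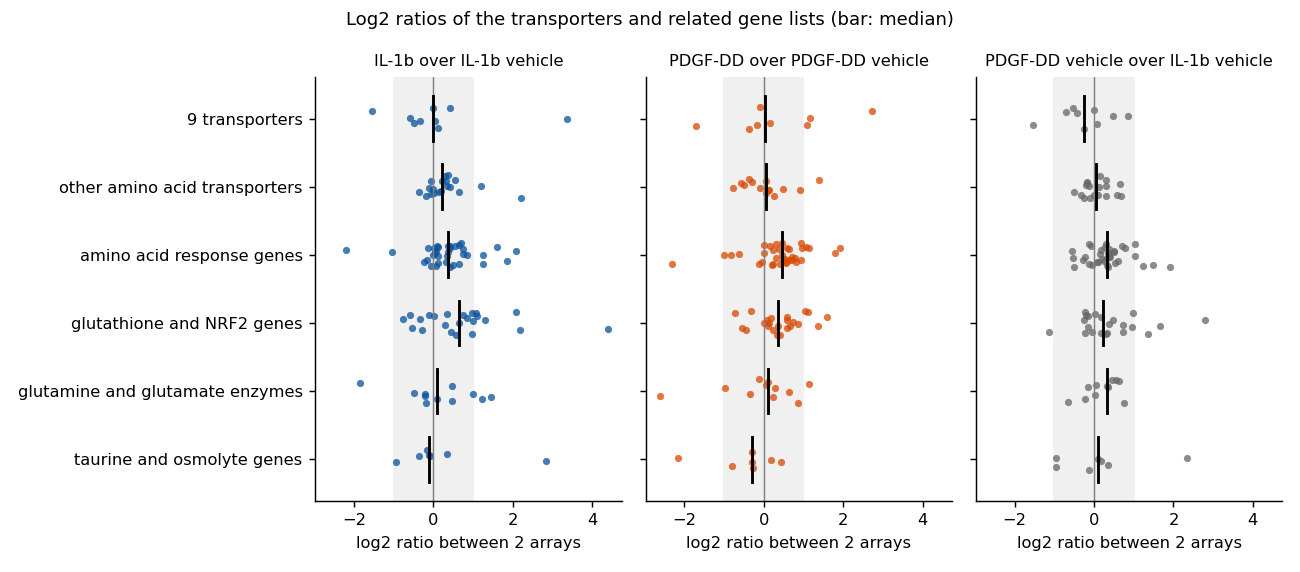
Log2 ratios between single arrays of the 9 transporters and of 5 related gene lists, 1 point per measured gene and a bar at the list median, with the grey band under 2-fold. Medians lie between -0.30 and 0.64 in the 3 panels. The far right point of the transporter row in the IL-1b and PDGF-DD panels is Slc7a11, and Cd44 and Cdo1 are far out in the vehicle panel as well.

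The genes whose pattern over the 4 arrays lay closest to that of Slc7a11 were sought among 10771 others, by the Euclidean distance of log2 values centred on each gene's mean. Ripk2 was nearest at 0.37, with intensities of 2593 with IL-1b and 1831 with PDGF-DD against 281 and 346 with their vehicles. The cytokine Il11 followed at 0.91, with both vehicle arrays under the floor. Then came the membrane protein Flrt2 (0.98), the transcription factor Etv4 (0.98), the fatty acid binding protein Fabp5 (1.03), the adaptor Shc4 (1.11), the nucleoside transporter Slc29a1 (1.15) and the transcription factor Etv5 (1.18). Etv4, Shc4 and Etv5 were under the floor on the IL-1b vehicle array, so that their distances, like that of Il11, depend on where the floor was set. The nearest of the other 8 transporters was Slc7a5 at 2.55, in place 712, and Slc3a2, the partner of xCT, stood at 2.77, in place 1871.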

How the data were processed

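Gene expression was measured on 4 Affymetrix rat arrays, 1 per group. The authors deposited 1 linear intensity per probe set, with MAS5 named per the submitters' processing notes, with version and scaling target unstated. Arrays were grouped by title. Each array was scaled to a common mean after trimming 2% of probe sets at either end (factors of 0.951 to 1.03), and values under the 40th percentile of all probe sets were set to it before log2 was taken. A platform annotation of 2016 gave 20832 probe sets 1 symbol, 436 several and 9831 none; 20764 matched GRCr8 RefSeq by gene identifier. Each gene was represented by its brightest probe set (mean log2 over the 4 arrays). Other probe sets are given for the members and for the list genes named by the rule below. This was done where a printed ratio of a factor to its own vehicle crossed 2-fold or moved by more than 1.5-fold. It was also done for Ggt5 between the vehicles. For the genes most like Slc7a11 and those added later, other probe sets are not given.

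With 1 array per group no test was possible; genes above the floor on at least 1 array of a pair were described by fold. The members, the gene lists and the motifs were chosen with earlier results of these data known. Outside the members, the text names genes from up to 4 per list and comparison with the largest ratios, fixed markers and regulators, and the 8 genes most like Slc7a11. Mt1, Gclc, Gclm, Yars1 and Nfat5 were added after their values were seen. The steps were run on simulated data with 200 genes changed, all far above the floor and with little noise between arrays. That run does not cover genes near the floor, such as Slc7a11 and Slc38a1, or differences as wide as those between the vehicle arrays. Alternatives were the deposited scaling, quantile normalization, floors at the 20th and 60th percentile, the median over probe sets, 1.5-fold and the other vehicle array. Python 3.11.15, numpy 2.4.6 and pandas 2.3.3 were used.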

Additional observations from a re-analysis of the deposited data

Results flagged for a closer look

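Cdo1 and Cebpb, named above or in the amino acid response list, were at least 2-fold apart in opposite directions with the factors. For Cdo1 the log2 ratios differed by 4.99, IL-1b less PDGF-DD (2.84 and -2.15), and its vehicle arrays had a log2 ratio of 2.34. For Cebpb, a transcription factor of the amino acid and acute phase responses, the difference was 3.09 (2.09 and -1.0), with 1.48 between the vehicle arrays. These opposite directions hold only against each factor's own vehicle. With the vehicles exchanged, Cdo1 had 0.50 for IL-1b and 0.19 for PDGF-DD, and Cebpb had 0.61 and 0.47, all under 2-fold. With 1 array per group neither difference was tested.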

How the results depend on the processing

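A value counts as moved here when it shifts by more than 1.5-fold. Of 143 values of single transporters under alternative settings 135 stayed within that and 8 moved, and none of those that were at least 2-fold turned sign. Ratios that could not be given under a setting are not among the 143. These were Slc38a1 with IL-1b at the 60th percentile floor and with the other vehicle array. Between the vehicles they were Slc38a1 and Slc7a11 at that same floor. Slc38a1 with PDGF-DD is also outside the 143 under every setting, because it had no ratio in the main setting to compare with. The count of transporters at least 2-fold apart with IL-1b fell from 2 to 1 with the floor at the 60th percentile, with the median over probe sets and with the other vehicle array, where Slc38a1 was lost or unmeasured. With PDGF-DD it fell from 4 to 2 with the other vehicle array, since Slc7a5, Slc1a5 and Slc1a3 passed under 2-fold and Slc38a1 passed over it. Between the vehicles it fell from 1 to 0 with the floor at the 60th percentile and with the median over probe sets, and was 3 at 1.5-fold. For Slc7a11 the floor at the 60th percentile lowered the log2 ratios to 1.62 with IL-1b and 1.47 with PDGF-DD, and the gap between the lower treated and the higher vehicle array to 1.47, as lower bounds. The gap and its alternatives were chosen after seeing the data. Signal near background limits Slc7a11 on the vehicle arrays and Slc38a1 on all but 1 array. No paired analysis was possible because each group is 1 array, and for the same reason no array could be left out.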
